A study of Mus musculus with 8 samples.

Results

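The genes described here are 9 receptors that guide T cells to lymph nodes, inflamed tissue, gut and tumors: Ccr2, Ccr4, Ccr6, Ccr7, Ccr8, Cxcr3, Cxcr4, Cxcr6 and Gpr15. They were chosen by symbol, and all 9 were found among the 55487 genes of each of 2 deposited tables. The cells were splenic regulatory T cells (Tregs) of C57BL/6 mice, described as sorted for GFP (1 library lacks this mark) and profiled by RNA-seq after SMART-Seq v4, a method for making full-length cDNA out of little RNA. The study compared Tregs labelled SRC-3KO, for a knockout of the nuclear receptor coactivator SRC-3 encoded by Ncoa3, with control Tregs, in mice with and without a tumor.

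There were 8 libraries in 4 groups of 2. Without a tumor, both SRC-3KO libraries carry the word Tam1 in their names, which is not explained and occurs in no other library. Control replicate 1 without a tumor is named WT and its source label lacks the GFP mark, while control replicate 2 is named FOxP3_Cre. With a tumor, both controls are named FOXP3cre, and all 4 libraries carry the GFP mark. The kind of tumor, the age and sex of the mice, the deleted exons and the promoter that drives the deletion are not stated in the labels. Nor do the labels tie the libraries to separate animals, so each p-value rests on the spread between 2 libraries a group, which may be technical.

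Chemokine receptors are G protein-coupled receptors that sense gradients of small secreted proteins and turn on integrins and cell movement. Naive and resting T cells use CCR7 to enter lymph nodes, and activated T cells exchange it for receptors that lead into tissue. In Tregs, CCR8 and CCR4 are known from skin and tumors, CXCR3 from type 1 inflammation, CCR6 from type 17 inflammation and GPR15 from the large intestine. GPR15 is related to the chemokine receptors and binds a peptide from epithelium.

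The libraries without a tumor held 24159217 to 31075452 read counts. For the tumor libraries no depth is known, because their values are FPKM (fragments scaled to transcript length and library size). All 5 Treg markers (Foxp3, Il2ra, Ctla4, Ikzf2 and Tnfrsf18) were above 0 in all 8 libraries, but their levels differed. With a tumor, 4 of the 5 were higher in both SRC-3KO libraries (27.5% of all genes tested were), and none was called. They summed to 1712 and 1246 FPKM in the tumor controls against 1969 and 2001 FPKM in the tumor SRC-3KO libraries. Their part in the receptor differences was not tested. Without a tumor Ncoa3 stood at 39.8 and 24.5 CPM (counts relative to library size) in the SRC-3KO libraries, against 131 and 58.7 CPM in the controls, and at 47.5 and 27.7 FPKM in the SRC-3KO libraries against 37.7 and 45.4 FPKM in the controls with one. In the tumor state the Ncoa3 levels overlapped, and because the deleted exons are not stated, reads of a remaining part may be counted. Group names therefore follow the labels alone. Without a tumor Foxp3 stood at 21.2 and 9.33 CPM in the SRC-3KO libraries. It stood at 230 CPM in control replicate 1 and at 22.3 CPM in control replicate 2. Foxp3 was thus lower in both SRC-3KO libraries (21% of all genes tested were), and it was not called. Of the 5 Treg markers, 3 were higher there in both (18.3% of all genes). The 5 summed to 1559 and 3780 CPM in the controls without a tumor and to 4830 and 4431 CPM in the SRC-3KO libraries. Tnfrsf18 was lowest in that control replicate 1, at 179 CPM. It stood at 1921 CPM in control replicate 2 and at 2471 and 2228 CPM in the SRC-3KO libraries. Markers of other cells differed between libraries. With a tumor, 8 B cell markers summed to 1663 and 2296 FPKM in the controls against 274 and 252 FPKM in the SRC-3KO libraries. Monocyte and macrophage markers summed to 1251 FPKM and neutrophil markers to 3514 FPKM in tumor control replicate 2, against at most 0.983 and 4.18 FPKM in the other 3 tumor libraries. Without a tumor, B cell markers summed to 103 and 1510 CPM in control and 905 and 415 CPM in SRC-3KO. Neutrophil markers there summed to 171 CPM in control replicate 2 and to at most 0.0396 CPM in any other library. Monocyte and macrophage markers summed to 0.356 and 47.4 CPM in control and 19.2 and 68.3 CPM in SRC-3KO. Fewer cells of a type and less RNA per cell cannot be told apart in bulk libraries.

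**Figure D1:**
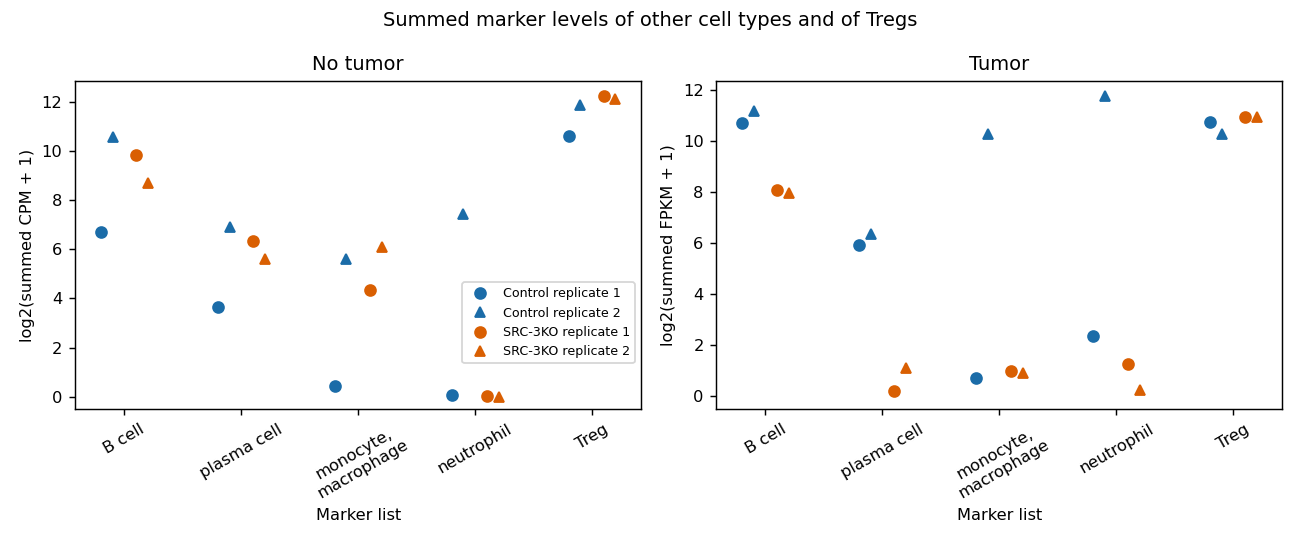
Summed levels of marker lists in each library, as log2(summed CPM + 1) without a tumor and log2(summed FPKM + 1) with one, with circles for replicate 1 and triangles for replicate 2. In the tumor libraries both controls lie above both SRC-3KO libraries for B cell and plasma cell markers, and monocyte and neutrophil markers are high in control replicate 2, at 1251 and 3514 FPKM.

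Ccr8 was the most abundant of the 9 receptors in all 8 libraries, and Ccr7 the second. To compare genes, counts without a tumor were divided by the length of each gene's exons (RPKM, reads scaled to length and library size). Among the 10501 to 12881 genes at 1 or more in a library, Ccr8 lay at percentile 97.5 to 99.6 and Ccr7 at percentile 95 to 97.7. Cxcr6 came next in 6 libraries, all 4 with a tumor among them. Ccr2 was lowest in 6 libraries and Ccr6 in the other 2. The order in between was not fixed. In the tumor controls Ccr4 (33.3 and 18.8 FPKM) and Cxcr3 (25.2 and 22.7 FPKM) overlapped, as did Ccr2, Ccr6 and Cxcr4 at 2.26 to 4.01 FPKM. In the tumor SRC-3KO libraries Gpr15 (22.4 and 22.2 FPKM) lay within the range of Cxcr3 (37.7 and 19.7 FPKM).

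**Figure D2:**
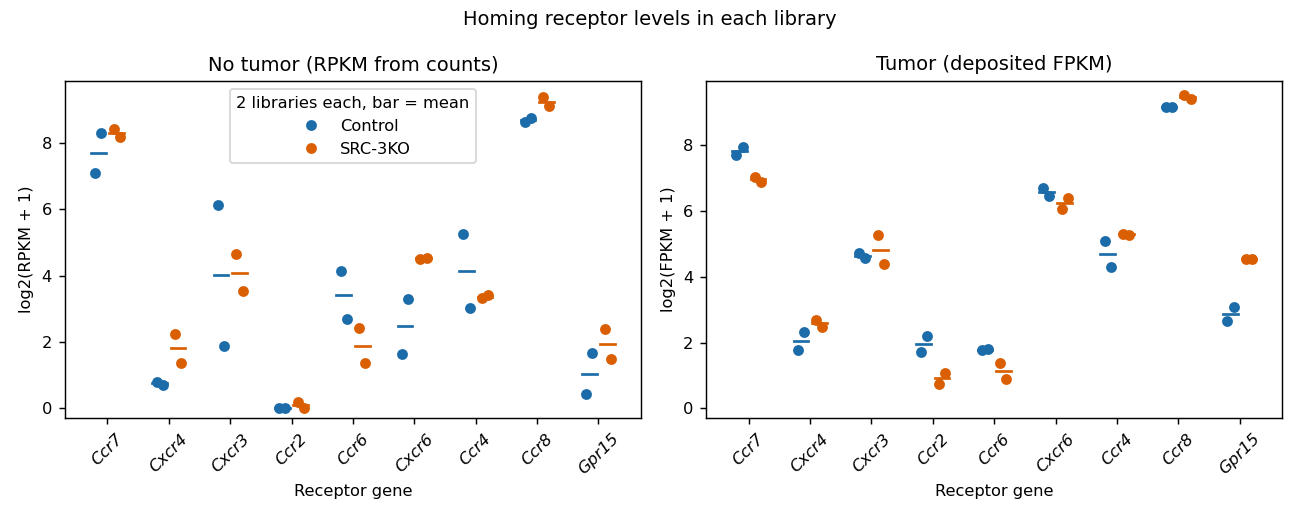
Level of each receptor in each library, as log2(RPKM + 1) without a tumor and log2(FPKM + 1) with one, with a point per library and a bar at the mean of the 2. Ccr8 is highest and Ccr7 second in both panels, and with a tumor the groups overlap for Cxcr3 alone.

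Promoter sequence is shown for Ccr8, Cxcr4 and Cxcr6, the receptors whose levels without a tumor were higher in each SRC-3KO library than in either control. Windows came from RefSeq (GRCm38.p6, the build that mm10 names) and run from 250 bases before to 50 bases after a transcript start. Of the 9 receptors, 8 had a window and Ccr7 had none. Only bases upstream of the first annotated start are printed, 5′ to 3′ on the gene's strand, at chr9:120091883-120092113 (plus strand) for Ccr8, chr1:128592300-128592549 (minus strand) for Cxcr4 and chr9:123806227-123806474 (plus strand) for Cxcr6. Capitals mark matches on either strand to the core of the aryl hydrocarbon receptor motif (GCGTG) or to the SMAD box (CAGAC).
Ccr8: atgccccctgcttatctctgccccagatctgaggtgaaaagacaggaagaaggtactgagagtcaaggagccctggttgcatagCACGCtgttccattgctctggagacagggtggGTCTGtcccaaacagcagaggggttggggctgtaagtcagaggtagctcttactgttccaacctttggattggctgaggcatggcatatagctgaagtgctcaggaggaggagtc
Cxcr4: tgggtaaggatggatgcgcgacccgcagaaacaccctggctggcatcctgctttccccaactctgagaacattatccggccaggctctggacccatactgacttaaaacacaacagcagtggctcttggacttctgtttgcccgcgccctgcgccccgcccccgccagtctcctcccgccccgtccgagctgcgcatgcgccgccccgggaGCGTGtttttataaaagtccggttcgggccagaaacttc
Cxcr6: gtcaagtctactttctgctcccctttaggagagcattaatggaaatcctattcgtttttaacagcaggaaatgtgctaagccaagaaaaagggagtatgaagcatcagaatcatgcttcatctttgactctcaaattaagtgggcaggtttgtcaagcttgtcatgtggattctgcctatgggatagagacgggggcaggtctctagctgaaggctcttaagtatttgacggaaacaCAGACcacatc
Over the whole windows, the nuclear receptor half-site AGGTCA was present in 1 of 9 windows of the receptors, a Ccr6 window, and in 16.3% of all 32851 RefSeq windows of the same length. GCGTG was present in 3 of 9 (Ccr8, Cxcr3 and Cxcr4) and 32.4% of all windows, and CAGAC in 5 of 9 (both windows of Ccr6, and Ccr8, Cxcr6 and Gpr15) and 49.6%. The AP-1 motif TGANTCA was present in the Ccr4 and Gpr15 windows and in 7.81% of all windows. The STAT motif TTCNNNGAA was present in 1 of 9 and in 8.3% of all windows, and the forkhead motif GTAAACA in 0 of 9 and in 3.65%. No match overlapped another motif in the printed stretches.

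With a tumor, 8 of the 9 receptors had levels that did not overlap between SRC-3KO and control, 4 higher and 4 lower in both SRC-3KO libraries. Gpr15, Ccr4, Ccr8 and Cxcr4 were higher, and Ccr7, Ccr2, Ccr6 and Cxcr6 were lower. Among all 12859 genes tested, 27.5% were higher and 24.9% lower in both, 52.4% in all. None of the 9 passed limma's test over all genes, which called 0.109% of genes (14), while 16.5% had an unadjusted p under 0.05. At that unadjusted level stood Gpr15 upward (10.4% of all genes) and Ccr7 and Ccr2 downward (6.07% of all genes). Ccr2 and Ccr6 reached the filter's 1 FPKM in both controls but in only 1 SRC-3KO library, so they were tested through their controls. No support is drawn from their place among the lower receptors or from the p of Ccr2. The median log2 fold change of the 9 was 0.19, against -0.02 over all genes. Fold changes with a tumor are on the log2(FPKM + 1) scale, which understates those of low genes, and are given as SRC-3KO over control with the standard error (SE) from limma.

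Without a tumor, 4 of the 9 receptors did not overlap between the groups, where 39.4% of all genes did not. Ccr8, Cxcr4 and Cxcr6 were higher in both SRC-3KO libraries (18.3% of all 14860 genes tested were), and Ccr6 was lower in both (21% of all genes). Ccr2 was too low to be tested. None of the other 8 passed edgeR's quasi-likelihood test, which called 0% of genes, with 3.18% (472 genes) at an unadjusted p under 0.05 and none of the receptors among them. DESeq2 called 157 genes (0.592%), with none of those 8 among them. With control replicate 2 left out, so that the WT library stood alone, edgeR called 43.8% of all genes and 6 of the receptors (Ccr4, Ccr6, Ccr7, Ccr8, Cxcr3 and Cxcr6). With control replicate 1 left out it called 0.00628% of genes and none of those 8.

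**Figure D3:**
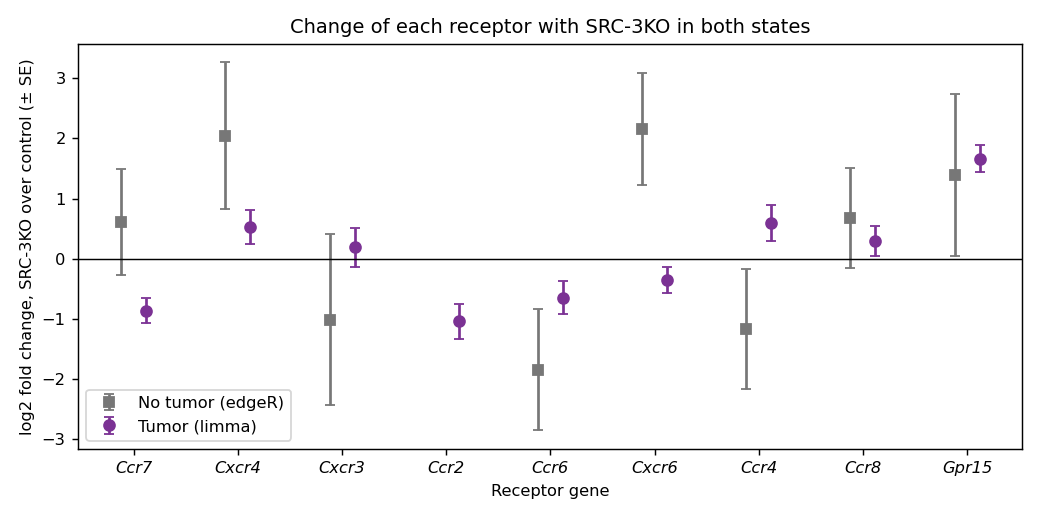
Log2 fold change of each receptor, SRC-3KO over control, with its SE (bars), without a tumor (squares, edgeR on counts) and with one (circles, limma on log2(FPKM + 1)), from 2 libraries a group. With a tumor Gpr15 lies highest at 1.66 and Ccr2 lowest at -1.04, and the bars without a tumor are wider.

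Ccr7, the receptor for the lymph node chemokines CCL19 and CCL21 (ENSMUSG00000037944, mm10 chromosome 11, 99144196 to 99155077, minus strand), was lower in the SRC-3KO libraries with a tumor. Its levels were 207 and 246 FPKM in the controls against 130 and 117 FPKM in the SRC-3KO libraries. Both SRC-3KO libraries were low, and the group means differed 1.83-fold. The log2 fold change was -0.86 (SE 0.21, limma adjusted p = 0.183). Without control replicate 1 it was -0.99 (limma adjusted p = 0.0369), where 3.68% of all genes were called. Without control replicate 2 it was -0.73 (limma adjusted p = 0.0313), where 20.1% of all genes were called. Over all alternatives the adjusted p ran from 0.0313 to 0.996. B cells also carry CCR7, and the B cell marker sum was 1663 and 2296 FPKM in these controls and 274 and 252 FPKM in SRC-3KO; the part of B cells in the Ccr7 difference was not tested. Without a tumor the mean of Ccr7 was higher with SRC-3KO, at 673 and 578 CPM in the SRC-3KO libraries against 270 and 627 CPM in the controls. Control replicate 1 was the low library there, and the groups overlapped. That change was 0.62 (SE 0.88, edgeR adjusted p = 0.910), 0.07 without control replicate 1 and 1.24 without control replicate 2 (edgeR adjusted p = 0.00637, with a range of 0.00637 to 1.0 over the alternatives).

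Cxcr4, which binds CXCL12 and holds cells in bone marrow and other CXCL12-rich sites (ENSMUSG00000045382, chromosome 1, 128588199 to 128592293, minus strand), was low in all libraries. With a tumor its levels were 2.45 and 4.01 FPKM in the controls against 5.51 and 4.57 FPKM in the SRC-3KO libraries. Both SRC-3KO libraries lay above both controls. Its change was 0.53 (SE 0.28, limma adjusted p = 0.394). Leaving out control replicate 1 gave 0.26, and leaving out control replicate 2 gave 0.80. Without a tumor it stood at 6.74 and 2.86 CPM in the SRC-3KO libraries against 1.31 and 1.16 CPM in the controls, from 185, 89, 33 and 28 counts. The groups did not overlap there either, and the change was 2.04 (SE 1.22, edgeR adjusted p = 0.910). It was 1.15 once its trend with GC and length was removed.

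Cxcr3, the receptor for the interferon-induced chemokines CXCL9, CXCL10 and CXCL11 (ENSMUSG00000050232, chromosome X, 101731535 to 101734269, minus strand), was the only receptor of the 9 whose tumor groups overlapped. Its levels were 25.2 and 22.7 FPKM in the controls against 37.7 and 19.7 FPKM in the SRC-3KO libraries. SRC-3KO replicate 1 was above both controls and replicate 2 below both. Its change was 0.19 (SE 0.33, limma adjusted p = 0.789), which turned to -0.26 without SRC-3KO replicate 1 and was 0.64 without SRC-3KO replicate 2. Without a tumor the controls stood far apart, at 120 and 4.64 CPM. The SRC-3KO libraries lay between them, at 41.6 and 18.4 CPM. The change was -1.01 (SE 1.42, edgeR adjusted p = 0.910), 2.76 without control replicate 1 and -1.97 without control replicate 2 (edgeR adjusted p = 0.0344, with a range of 0.0344 to 1.0 over the alternatives), so the library left out set its direction. Removing the GC and length trend gave -0.30. Limma-voom, the fit used for the difference between the states, gave the other direction, at 0.36 (SE 1.57).

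Ccr2, the receptor for CCL2 that monocytes and some effector T cells carry (ENSMUSG00000049103, chromosome 9, 124101950 to 124113557, plus strand), was lower in the SRC-3KO libraries with a tumor. Its levels were 2.26 and 3.59 FPKM in the controls against 0.671 and 1.13 FPKM in the SRC-3KO libraries. Both SRC-3KO libraries were low, and the control mean was 3.25 times theirs. The log2 fold change was -1.04 (SE 0.29, limma adjusted p = 0.219). A pseudocount of 0.1 in place of 1 gave -1.60. Monocyte markers were high in control replicate 2 (1251 FPKM). In control replicate 1, where they summed to 0.653 FPKM and Csf1r and Cd14 were listed at 0, Ccr2 was at 2.26 FPKM. The part of monocytes in the Ccr2 difference was not tested. Without control replicate 2 the change was -0.79 (limma adjusted p = 0.107). Without a tumor Ccr2 had 28 and 0 counts in SRC-3KO and 2 and 0 in control. A count of 0 allows up to 0.0965 CPM in SRC-3KO replicate 2 and 0.124 CPM in control replicate 2, for counting error only, so Ccr2 was not compared without a tumor.

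Ccr6, the receptor for CCL20 on type 17 T cells and B cells (ENSMUSG00000040899, chromosome 17, 8236043 to 8257141, plus strand), was lower with SRC-3KO in both states, with no overlap. With a tumor its levels were 2.45 and 2.47 FPKM in the controls against 1.61 and 0.867 FPKM in the SRC-3KO libraries. The controls were nearly equal, and SRC-3KO replicate 2 was the lowest library. Its change was -0.65 (SE 0.27, limma adjusted p = 0.321). With a pseudocount of 0.1 it was -0.99, and without SRC-3KO replicate 2 it was -0.40. Without a tumor it stood at 10.1 and 3.64 CPM in the SRC-3KO libraries against 38.7 and 12.6 CPM in the controls, and the groups did not overlap. That change was -1.85 (SE 1.01, edgeR adjusted p = 0.910), -0.82 without control replicate 1 and -2.47 without control replicate 2 (edgeR adjusted p = 0.0384, with a range of 0.0384 to 1.0 over the alternatives). B cell markers were lower with SRC-3KO in the tumor libraries, while without a tumor they were lowest in control replicate 1, at 103 CPM, where Ccr6 was highest. Their part in the Ccr6 differences was not tested.

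Cxcr6, the receptor for CXCL16 on tissue-resident and effector T cells (ENSMUSG00000048521, chromosome 9, 123806475 to 123811760, plus strand), differed between SRC-3KO and control in opposite directions in the 2 states. Without a tumor it stood at 41.7 and 43.2 CPM in the SRC-3KO libraries against 4.12 and 17.1 CPM in the controls. The SRC-3KO libraries were close to each other and above both controls. The change was 2.16 (SE 0.93, edgeR adjusted p = 0.910). It was 1.39 without control replicate 1, 1.44 with the GC and length trend removed and 3.40 without control replicate 2 (edgeR adjusted p = 0.00368, with a range of 0.00368 to 1.0 over the alternatives). With a tumor its levels were 103 and 87.7 FPKM in the controls against 66.2 and 83.8 FPKM in the SRC-3KO libraries, where SRC-3KO replicate 2 came close to control replicate 2. That change was -0.35 (SE 0.22, limma adjusted p = 0.451). It was -0.18 without SRC-3KO replicate 1 and -0.52 without SRC-3KO replicate 2. A GC and length correction gave -0.20. Cxcr6 lies inside Fyco1 on the opposite strand and shares no exon bases with it.

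Ccr4, the receptor for CCL17 and CCL22 that leads T cells to skin and inflamed sites (ENSMUSG00000047898, chromosome 9, 114490316 to 114504916, minus strand), was higher in both SRC-3KO libraries with a tumor. Its levels were 33.3 and 18.8 FPKM in the controls against 38.6 and 37.8 FPKM in the SRC-3KO libraries. Control replicate 2 was the low library. The change was 0.59 (SE 0.30, limma adjusted p = 0.376). Without control replicate 1 it was 0.99 (limma adjusted p = 0.0369, with a range of 0.0369 to 0.996 over the alternatives), and without control replicate 2, the library with the myeloid markers, it was 0.20. Without a tumor Ccr4 stood at 27.6 and 29.8 CPM in the SRC-3KO libraries against 114 and 22.1 CPM in the controls, and the groups overlapped. The change of -1.17 (SE 1.0, edgeR adjusted p = 0.910) turned to 0.45 without control replicate 1 and was -1.96 without control replicate 2 (edgeR adjusted p = 0.00486, with a range of 0.00486 to 1.0 over the alternatives).

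Ccr8, the receptor for CCL1 that marks activated Tregs of tissues and tumors (ENSMUSG00000042262, chromosome 9, 120092114 to 120094906, plus strand), was higher in both SRC-3KO libraries in both states. With a tumor its levels were 575 and 568 FPKM in the controls against 730 and 678 FPKM in the SRC-3KO libraries, a ratio of means of 1.23. The controls were close to each other, and both SRC-3KO libraries lay above them. The change was 0.30 (SE 0.25, limma adjusted p = 0.565). Removing the GC and length trend gave 0.49. Without a tumor it stood at 792 and 645 CPM in the SRC-3KO libraries against 469 and 506 CPM in the controls, a ratio of means of 1.47. That change was 0.67 (SE 0.83, edgeR adjusted p = 0.910). It stayed between 0.42 and 0.78 over all alternatives, and without control replicate 2 it was 0.65 (edgeR adjusted p = 0.0425, with a range of 0.0425 to 1.0).

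Gpr15, which leads T cells to the large intestine (ENSMUSG00000047293, chromosome 16, 58717433 to 58719070, minus strand), had the largest difference of the 9 with a tumor. Its levels were 5.35 and 7.49 FPKM in the controls against 22.4 and 22.2 FPKM in the SRC-3KO libraries. The SRC-3KO libraries were nearly equal, and the means were 6.42 ± 1.51 FPKM (SD, n = 2) in control and 22.3 ± 0.189 FPKM (SD, n = 2) in SRC-3KO, a 3.47-fold difference. The log2 fold change was 1.66 (SE 0.23), at rank 53 of 12859 by p, and it did not pass over all genes (unadjusted p = 0.000551, limma adjusted p = 0.121). It ran from 1.46 to 1.87 over the alternatives. Without control replicate 1 it was 1.46 (limma adjusted p = 0.0238) and without control replicate 2 it was 1.87 (limma adjusted p = 0.0284), with a range of adjusted p from 0.0238 to 0.322. Cpox, an enzyme of haem synthesis, overlaps Gpr15 on the opposite strand over 12.5% of the exon bases of Gpr15, and the kit does not mark strand, so some reads may belong to either gene. Cpox stood at 32.3 and 27.2 FPKM in the controls against 64.6 and 54.3 FPKM in the SRC-3KO libraries, a change of 0.98 (SE 0.20, limma adjusted p = 0.156); its part in the Gpr15 difference was not tested. Without a tumor Gpr15 stood at 6.96 and 2.99 CPM in the SRC-3KO libraries against 0.554 and 3.60 CPM in the controls, and the groups overlapped. Control replicate 1 was the lowest for Gpr15, with 14 counts, and the highest for Cpox, at 100.3 CPM. That change was 1.39 (SE 1.35, edgeR adjusted p = 0.910), 0.53 without control replicate 1 and 3.18 without control replicate 2 (edgeR adjusted p = 0.0556, with a range of 0.0556 to 1.0).

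**Figure D4:**
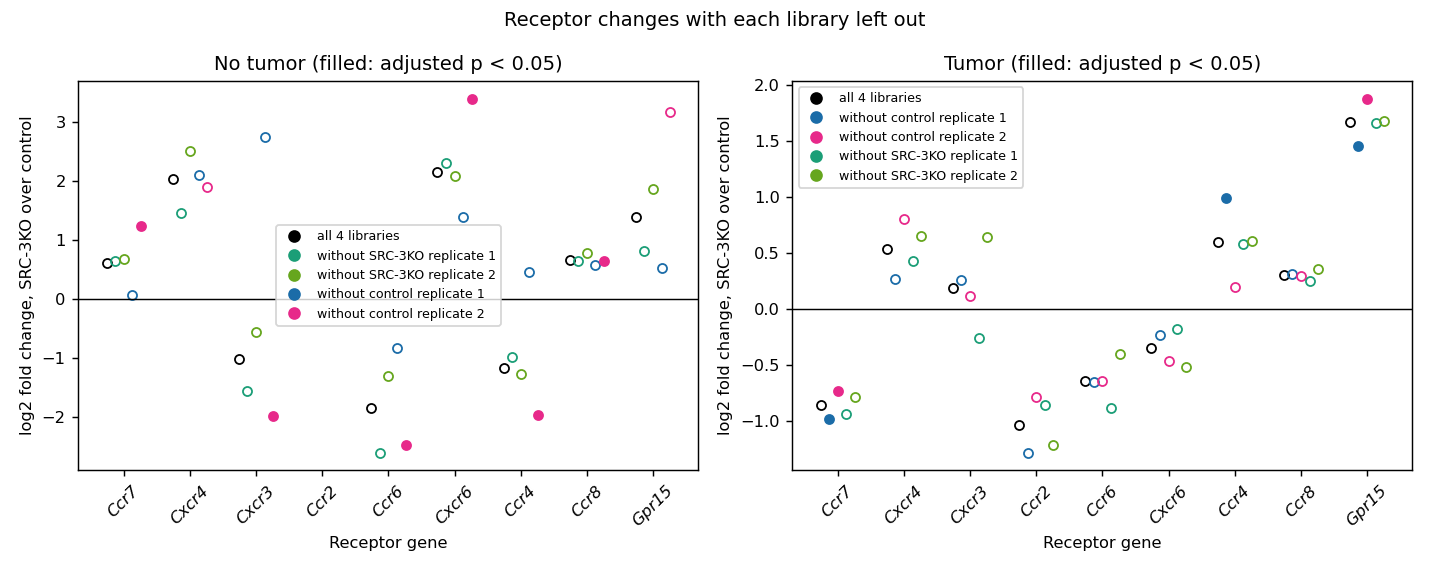
Log2 fold change of each receptor, SRC-3KO over control, with all 4 libraries of a state and with each library left out, without a tumor (edgeR) and with one (limma). Filled points have an adjusted p under 0.05. With a tumor every receptor except Cxcr3 keeps its direction in every fit, and without a tumor Cxcr3 runs from -1.97 to 2.76.

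Between the states, 3 receptors did not overlap in the same direction (Ccr8 and Cxcr4 higher, Ccr6 lower with SRC-3KO) and Cxcr6 did so in opposite directions. Among the 11674 genes tested in both tables, 6.24% and 15% did. With a tumor Ccr6 passed the filter on low values through its controls, so no support is drawn from its place in that count. The difference of the SRC-3KO effect, tumor minus no tumor, was tested for 8 receptors and none passed over all genes. That test called 0% of genes, with 4.02% (469 genes) at an unadjusted p under 0.05. The difference was largest for Cxcr6, at -2.80 (SE 0.93, unadjusted p = 0.0274, adjusted p = 0.571). For Ccr7 it was -1.58 (SE 0.83, adjusted p = 0.571), with voom changes of 0.72 without a tumor and limma changes of -0.86 with one. For Gpr15 it was -0.10 (SE 1.30, adjusted p = 0.973), an SE that spans large differences in either direction. Levels were not tested between the states, because the tables hold different units.

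Of 16 chemokine ligands of these receptors, 6 could be tested with a tumor, and each of these 6 had lower levels in both SRC-3KO libraries (24.9% of all genes did). Ccl17, Ccl22 and Cxcl16 passed the filter on low values through the controls alone, so no support is drawn from that count. The same holds for their median log2 fold change of -2.80 and for the count by p that follows. None was called (smallest limma adjusted p = 0.121), and 4 of the 6 had an unadjusted p under 0.05 (6.07% of all genes, downward). Ccl1, the ligand of CCR8, stood at 84.2 and 39.2 FPKM in the controls against 4.61 and 9.03 FPKM in the SRC-3KO libraries, a change of -2.96 (SE 0.45). Ccl20, the ligand of CCR6, stood at 16.0 and 8.69 FPKM in the controls against 1.29 and 1.87 FPKM in the SRC-3KO libraries, a change of -2.32 (SE 0.34). Both were highest in control replicate 1, where monocyte markers summed to 0.653 FPKM, B cell markers to 1663 FPKM and plasma cell markers to 60.5 FPKM. In control replicate 2 the B cell and plasma cell sums were 2296 and 82.3 FPKM. The part of myeloid, B or plasma cells in the ligand differences was not tested. The CCR4 ligands Ccl22 and Ccl17 were highest in control replicate 2, the library with the myeloid markers, at 35.8 and 21.2 FPKM, against 4.32 and 2.55 FPKM in control replicate 1 and at most 0.832 FPKM in SRC-3KO. The CXCR6 ligand Cxcl16 and the CXCR3 ligand Cxcl10 had the same order, with 40.4 and 80.0 FPKM in control replicate 2. Without a tumor the ligands went both ways, with 2 of 6 tested higher (18.3% of all genes) and 1 lower (21% of all genes) in both SRC-3KO libraries. There Ccl22 stood at 20.4 and 11.5 CPM in the SRC-3KO libraries against 41.9 and 46.8 CPM in the controls, and Ccl17 and Ccl20 were higher, with changes of 1.64 (SE 1.22) and 1.10 (SE 1.04).

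Of 17 other chemokine receptors, 5 could be tested with a tumor and 7 without, and none was called. With a tumor 0 were higher (27.5% of all genes) and 2 lower (24.9% of all genes) in both SRC-3KO libraries. These were Cx3cr1, the fractalkine receptor (1.06 and 1.26 FPKM in the controls, 0.441 and 0.194 FPKM in the SRC-3KO libraries), and Ccr1 (2.15 and 25.8 FPKM in the controls, 0.673 and 0.780 FPKM in the SRC-3KO libraries), which was high with the myeloid markers. Both passed the filter on low values through the controls alone. Gpr183, an oxysterol receptor that positions lymphocytes, differed by 0.35 (SE 0.25), and the scavenging receptor Ccrl2 stood at 40.6 FPKM in control replicate 2 and at 1.56 to 3.64 FPKM in the other 3 libraries. Without a tumor Ccrl2 had 5.57 and 0.804 CPM in SRC-3KO and 0 in both controls, and Xcr1 had 0 in both SRC-3KO libraries and 2.02 and 1.61 CPM in the controls. Each passed the filter on low counts through its higher group alone, so the unadjusted p of both, under 0.05 (0.882% of all genes upward and 2.29% downward), supports nothing. Ccr1 was higher and Cxcr5, the receptor of the B cell follicle, lower in both SRC-3KO libraries.

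Of 12 homing partners, 3 were higher (27.5% of all genes) and 3 lower (24.9% of all genes) in both SRC-3KO libraries with a tumor, shares near those of all genes, and none was called. Itgae, the CD103 integrin chain that binds epithelium, stood at 13.6 and 14.8 FPKM in the controls against 41.7 and 34.4 FPKM in the SRC-3KO libraries, a change of 1.36 (SE 0.20, limma adjusted p = 0.121). S1pr4 and the integrin chain Itgal were also higher, by 0.93 (SE 0.22) and 0.80 (SE 0.22). Without a tumor 1 of 12 was higher (18.3% of all genes) and 3 were lower (21% of all genes). The 3 lower genes were Itgal at -1.53 (SE 0.85), Itgb7 at -1.28 (SE 0.78) and Itgae at -0.93 (SE 1.0). Fut7, with overlapping groups, had 2.11 and 4.57 CPM in the SRC-3KO libraries and 33.1 and 0 CPM in the controls, and its change was -2.22 (SE 2.33) by edgeR and 2.12 by voom.

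By the root mean square difference of centred log2 values over the 4 tumor libraries, the gene nearest to Gpr15 among 26 receptors and homing partners was Itgae (0.208). The gene nearest to Ccr7 was Cx3cr1 (0.0925), which was also nearest to Ccr6 (0.0950). Cx3cr1 passed the filter on low values through the controls alone, so no support is drawn from its nearness to either. Ccr2 and Ccr6 also passed that filter through their controls, so none is drawn from the genes nearest to them. Ccr8 was nearest to the integrin chain Itgb1 (0.137) and Cxcr4 to the integrin chain Itga4 (0.129). Ccr2 was nearest to Ccr7 (0.215), Ccr4 to Gpr183 (0.195), Cxcr3 to Itgb7 (0.157) and Cxcr6 to S1pr1 (0.209). These distances describe 4 libraries and carry no test.

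Of 25 genes for receptor signalling and desensitisation found, 24 were tested with a tumor, 7 higher (27.5% of all genes) and 6 lower (24.9% of all genes) in both SRC-3KO libraries, shares near those of all genes, and none was called. Talin, Tln1, which links integrins to the cytoskeleton, stood at 8.44 and 19.7 FPKM in the controls against 67.8 and 64.2 FPKM in the SRC-3KO libraries, a change of 2.26 (SE 0.39, limma adjusted p = 0.135). Elmo1 and Dock2, which act together on Rac in cell migration, differed by 0.80 (SE 0.19) and 0.90 (SE 0.24). Rgs10, which shortens G protein signals, differed by -1.05 (SE 0.26). Without a tumor 3 of 25 were higher (18.3% of all genes) and 7 lower (21% of all genes). The receptor kinases Grk2 and Grk6 were lower, with changes of -2.31 (SE 1.02) and -2.06 (SE 0.99), as was the G protein subunit Gnai2 (-1.92, SE 1.05), while Gnai3 was higher (1.35, SE 0.75). Control replicate 1 was the high library for Grk2, Grk6 and Gnai2, at 286, 193 and 497 CPM.

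Among 9 tested transcription factors known to act on these receptors, 5 were higher (27.5% of all genes) and 1 lower (24.9% of all genes) in both SRC-3KO libraries with a tumor, and none was called. Bach2, which keeps T cells in a resting state, differed by -1.45 (SE 0.27, limma adjusted p = 0.144). Batf, which drives tissue Treg differentiation, differed by 0.96 (SE 0.26). Ahr and Smad3, both known to act on Gpr15, differed by 0.83 (SE 0.25) and 0.73 (SE 0.22). Without a tumor 0 of 10 were higher (18.3% of all genes) and 3 lower (21% of all genes) in both, and these 3 were Tbx21 (-2.26, SE 0.96), Ahr (-2.69, SE 1.16) and Gata3 (-1.71, SE 0.92). Bcl6 was next by p, at -3.84 (SE 2.52), with 13.9 and 0 CPM in control and overlapping groups. The median log2 fold change over the tested genes of a list was, with a tumor, 0.40 for the transcription factors, 0.13 for the homing partners and 0.09 for the signalling genes, against -0.02 for all genes. Without a tumor these medians were -1.17, -0.24 and -0.31, again against -0.02 for all genes.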

How the data were processed

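Reads of the 4 libraries without a tumor were deposited by the authors as raw counts per gene, and those of the 4 tumor libraries as FPKM. The submitters' processing notes name mm10, FastQC, Trim Galore, STAR, featureCounts and edgeR, and the file names add StringTie. The annotation release and strand setting are not given in these sources. No library is in both tables, so each state was tested in its own table. Counts were filtered with filterByExpr, scaled by TMM (factors 0.916 to 1.086) and tested with edgeR 4.0.16 (R 4.3.3, common dispersion 0.791); the SE is the log2 fold change divided by the square root of F. FPKM were tested with limma 3.58.1 (trend) as log2(FPKM + 1) keeping genes that reach 1 FPKM in 2 or more libraries. The difference between states used limma-voom and limma changes and the smaller degrees of freedom. p-values were adjusted by Benjamini-Hochberg over all genes, with a threshold of 0.05. The members and lists were chosen with earlier results of these data known. Named genes were the 9 members and up to 4 genes per list and comparison with the smallest p, except that some genes are not reported here. Positions, exon lengths and GC content came from GENCODE vM21 for mm10 (55227 IDs matched). Scripts were tested on simulated data. Alternatives were DESeq2 1.42.0, RLE factors, no filter, a pseudocount of 0.1, median of ratios scaling, a GC and length correction, a replicate block and leaving out each library.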

Additional observations from a re-analysis of the deposited data

Results flagged for a closer look

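Cxcr6 stood out because SRC-3KO and control differed in opposite directions in the 2 states, with no overlap between the groups in either. Without a tumor it stood at 41.7 and 43.2 CPM in the SRC-3KO libraries against 4.12 and 17.1 CPM in the controls, and with one at 66.2 and 83.8 FPKM in the SRC-3KO libraries against 103 and 87.7 FPKM in the controls. The difference of the 2 effects was -2.80 (SE 0.93, unadjusted p = 0.0274) and did not pass over all genes (adjusted p = 0.571). Of all genes tested in both tables, 15% had groups that did not overlap in opposite directions. The low value of 4.12 CPM came from the control library named WT.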

How the results depend on the processing

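Limma-voom, used for the difference between the states, gave 0.36 for Cxcr3 without a tumor, against -1.01 by edgeR. For the 9 receptors, all the listed alternatives kept the direction of the change except 3. Without control replicate 1 in the no-tumor table, Ccr4 was 0.45 and Cxcr3 was 2.76, and without SRC-3KO replicate 1 in the tumor table Cxcr3 was -0.26 (ranges with each library left out: -1.96 to 0.45, -1.97 to 2.76 and -0.26 to 0.64); the cause was not tested. Without a tumor, edgeR called 0 genes, against 70 with no filter, 157 by DESeq2 and 0 to 7434 with each library left out. With a tumor, limma called 14 genes, against 7 with a pseudocount of 0.1, 1 with no filter, 6 with median of ratios scaling, 13 with the GC and length trend removed and 31 to 2510 with each library left out. With a replicate block it called 72 genes, and Gpr15 had an adjusted p of 0.0664. The labels do not say that the numbers pair libraries, and the deviations of same-numbered tumor libraries correlated at 0.036. A fit that leaves out a library rests on a lone library in its group, which is assumed to vary like the other group. RLE factors moved the no-tumor median of all genes from -0.02 to -0.15. Receptors whose groups did not overlap were also counted with each library left out, a check chosen after seeing the data. Such counts can only stay or rise when a library is left out, and the share over all genes was not computed. They are therefore not read as a measure of stability. Depth is unknown with a tumor, and Ccr2, at 28 counts or fewer, could not be compared without one.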

Other observations

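As a share of the summed level of the 9 receptors per length, Ccr8 made up 60.1% and 59.1% in the tumor controls and 70.7% and 70.2% in the tumor SRC-3KO libraries. Ccr7 made up 21.6% and 25.6% in those controls and 12.6% and 12.2% in SRC-3KO. The log2 ratio of Ccr8 to Ccr7, chosen after the values were seen, was 1.48 and 1.21 in the tumor controls. It was 2.48 and 2.53 in the tumor SRC-3KO libraries. These could not overlap, as Ccr8 was higher and Ccr7 lower in both SRC-3KO libraries, so the ratio adds no support. Without a tumor it was 1.55 and 0.44 in control and 0.99 and 0.91 in SRC-3KO, where both SRC-3KO values lay between the controls. Gpr15 made up 0.561% and 0.779% in the tumor controls and 2.17% and 2.29% in tumor SRC-3KO.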
